A study of Mus musculus with 8 samples.

Results

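The genes described here are Plk5, Htra4, Npnt, Plekha2, Fam163b, Tdo2, Pdzd2, Kif26b and Ipcef1, 9 of the 46517 genes listed in bulk RNAseq and 9 of the 24051 genes listed in snRNAseq of the mouse hippocampus. They were chosen by their measured fall in bulk RNAseq of the mutant and by their listing as dentate granule cell (DGC) genes. Their bulk values and their DGC pattern are therefore descriptions and carry no test. Each assay used 2 mutant mice (Gfap-Cre;Wls fl/-) and 2 control mice (Gfap-Cre;Wls fl/+), one mouse per library with both hippocampi taken, and each mouse was a male of about 12 weeks per the study's methods. All 8 mice carried Gfap-Cre, which recombines in a subset of neural progenitors, and a conditional (fl) Wls allele. The second Wls allele was null in mutants and wild type in controls, so control progenitors also lose one Wls copy where Cre acts.

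Granule cells are the main excitatory neurons of the dentate gyrus, receive the perforant path from entorhinal cortex, and send mossy fibers to CA3. They arise from progenitors beside the cortical hem, a source of Wnt signals, and Wls encodes the chaperone that carries Wnt proteins to the cell surface. Prox1, a homeodomain transcription factor, is needed for granule cell identity, and C1ql2, Dsp, Calb1 and Rfx3 mark mature granule cells. The 9 genes have unrelated molecular roles. Plk5 is a Polo-like kinase family member found in the nervous system, Htra4 a secreted serine protease, Npnt (nephronectin) an extracellular matrix ligand of integrin alpha8 beta1, and Tdo2 the enzyme that opens the tryptophan ring on the way to kynurenine. Plekha2 is a pleckstrin homology adaptor that binds phosphoinositides, Pdzd2 a multi-PDZ protein, Kif26b an atypical kinesin, and Ipcef1 a partner of cytohesins, which activate ARF GTPases. Fam163b is a small protein of little known function.

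The genes lie on 6 chromosomes (mm10, which is GRCm38, with GENCODE vM21 positions). Htra4 and Plekha2 are neighbours on the minus strand of chromosome 8, at chr8:25024929-25038962 and chr8:25039144-25102376, with 181 bases between the end of one and the start of the next. Of 21929 adjacent pairs of protein-coding genes, 85 (0.388%) lie on one strand with a gap no larger, and RefSeq gives the same pair of facing ends. Ipcef1 (chr10:6885796-7052478, minus strand) is the only one that overlaps another protein-coding gene, the opioid receptor gene Oprm1 on the opposite strand. Pdzd2 (chr15:12359711-12739924) and Kif26b (chr1:178529125-178939200) span 380214 and 410076 bases, the longest of the 9.

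The RefSeq promoter table for GRCm38 (250 bases before to 50 bases after a start) matched 7 of the 9 genes, and held no entry for Htra4 and Plekha2. Promoters are shown for Kif26b and Fam163b, which hold CTTTGA, the core letters that LEF and TCF factors of the Wnt pathway bind, for Tdo2, the only one with TATAAA, and for Plk5, the gene that fell most among those with more than a trace level. Each motif was searched on both strands, and capitals mark CTTTGA or its complement, CAGCTG, and TATAAA or its complement. The sequences run 5′ to 3′ on the gene's strand, at chr1:178528875-178529174 (plus), chr2:27142428-27142727 (minus), chr3:81975679-81975978 (minus) and chr10:80356209-80356508 (plus).
Kif26b: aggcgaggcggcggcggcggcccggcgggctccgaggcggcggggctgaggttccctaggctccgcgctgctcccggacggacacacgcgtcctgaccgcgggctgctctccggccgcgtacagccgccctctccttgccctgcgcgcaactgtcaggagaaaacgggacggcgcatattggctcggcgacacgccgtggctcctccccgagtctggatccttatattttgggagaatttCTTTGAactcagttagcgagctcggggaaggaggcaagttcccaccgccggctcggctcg
Fam163b: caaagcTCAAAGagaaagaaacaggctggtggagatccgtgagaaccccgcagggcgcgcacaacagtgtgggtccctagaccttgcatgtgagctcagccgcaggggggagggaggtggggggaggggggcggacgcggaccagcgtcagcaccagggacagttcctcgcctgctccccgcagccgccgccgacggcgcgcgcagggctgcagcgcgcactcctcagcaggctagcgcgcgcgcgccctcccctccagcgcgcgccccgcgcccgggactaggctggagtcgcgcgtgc
Tdo2: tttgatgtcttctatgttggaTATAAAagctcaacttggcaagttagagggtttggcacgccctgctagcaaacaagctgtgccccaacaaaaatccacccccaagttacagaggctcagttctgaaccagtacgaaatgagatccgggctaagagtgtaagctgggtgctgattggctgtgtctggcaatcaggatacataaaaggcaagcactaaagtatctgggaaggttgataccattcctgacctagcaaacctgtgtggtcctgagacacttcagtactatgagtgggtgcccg
Plk5: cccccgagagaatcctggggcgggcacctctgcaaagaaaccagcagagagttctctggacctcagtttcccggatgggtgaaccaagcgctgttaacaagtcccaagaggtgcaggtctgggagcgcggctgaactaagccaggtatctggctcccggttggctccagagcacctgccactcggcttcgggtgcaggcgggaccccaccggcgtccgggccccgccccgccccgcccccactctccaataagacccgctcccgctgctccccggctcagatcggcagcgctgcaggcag

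Motifs were counted in the first promoter listed for each gene. CTTTGA was present in 2 of the 7, against 16.2% of 27025 mouse genes' promoters. TATAAA was present in 1 of 7, against 14.2%, and CAGCTG in 1 of 7 (Ipcef1), against 16.1%. The looser E-box CANNTG, which includes every CAGCTG, was in the first promoter of 4 of 7, against 72.1% of all. The second promoter listed for Npnt also held CANNTG, and no motif was found for all 7 genes. The promoters differed in CpG number, from 38 in 300 bases for Kif26b and 34 for Fam163b to 4 for Tdo2 and 3 to 6 for the promoters of Ipcef1, where the median over all promoters was 7.

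Wls itself was lower in mutants in bulk tissue and in all nuclei summed. In bulk it stood at 13.2 and 13.0 counts per 1000000 counts of the library (CPM) in controls and 3.67 and 6.86 in mutants. In all nuclei summed it stood at 21.4 and 26.9 UPM in controls and 7.05 and 11.4 in mutants, where a UMI is one counted RNA molecule and UPM is UMIs per 1000000 UMIs of the nuclei summed. Wls was therefore still detected in mutant tissue. In DGC nuclei alone Wls was not lower, at 3.33 and 4.45 UPM in controls and 4.78 and 5.64 in mutants, the latter from 2 and 19 UMIs. In all other nuclei it stood at 28.9 and 34.7 against 7.06 and 11.8.

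The sex label did not match in 2 of the 4 bulk libraries. Xist, made from the inactive X of females, stood at 518 CPM in bulk control 2 and 230 in bulk mutant 2, while Y-linked Ddx3y stood at 0.343 and 0.352. In bulk control 1 and mutant 1, Xist was at 1.05 and 1.44 CPM and Ddx3y at 58.3 and 54.5. The 4 snRNAseq libraries had Xist between 1.62 and 3.61 and Ddx3y between 30.7 and 55.8 UPM. Bulk replicate 2 of each genotype thus looked female against its label. Each genotype held one library of each kind, so fold changes within a replicate number are given below, and those numbers are not known to pair litters.

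The DGC label of the deposited cell type annotation was checked against its markers. Among the 18 cell types with enough control nuclei, all 5 granule cell markers had their highest level in the nuclei labelled as granule cells. Rfx3 stood at 1207 UPM against 402 in CA2, and Dsp at 42.7 against 11.3 in the next type. Prox1 and C1ql2 were less specific, Prox1 at 283 against 219 in oligodendrocytes and C1ql2 at 40.0 against 26.1 in oligodendrocyte precursors. DGC nuclei numbered 2336 (36.1%) and 2007 (27.9%) in the controls, and 90 (1.70%) and 463 (4.43%) in the mutants. Library totals were 56002381 to 79576196 expected counts in bulk, and 26307081 to 76486132 UMIs over 5304 to 10460 nuclei in snRNAseq. The snRNAseq libraries shared 8 to 21 cell barcodes per pair.

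In bulk tissue all 9 genes were lower in both mutants than in both controls, as were 25.4% of 20687 tested genes. Plk5 stood at 22.7 and 20.4 CPM in controls and 2.99 and 3.09 in mutants, 7.07-fold lower. Npnt stood at 51.1 and 48.2 against 11.1 and 11.1, 4.47-fold lower. Fam163b, the most abundant per length with a mean of 118.8 transcripts per 1000000 transcripts (TPM) in controls, stood at 186.8 and 140.1 CPM against 41.3 and 38.4. The groups were far apart for these genes. Plekha2 stood at 68.7 and 64.7 CPM against 18.4 and 15.4, and Tdo2 at 9.05 and 9.07 against 2.06 and 1.46. Ipcef1 stood at 35.0 and 32.6 against 9.40 and 5.04, the widest spread between mutants after Htra4. Htra4 was near the detection limit, with 105 and 91 expected counts in controls and 13 and 8 in mutants, or 1.86 and 1.36 CPM against 0.221 and 0.101.

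Pdzd2 and Kif26b fell least of the 9. Pdzd2 stood at 81.6 and 84.6 CPM in controls and 27.2 and 27.6 in mutants, 3.04-fold lower and just inside the 3-fold threshold of the bulk call. On log2(TPM + 0.1) the difference of Pdzd2 was -1.566, just outside 3-fold, and 8 of the 9 genes were past it. Kif26b stood at 38.3 and 42.0 against 13.2 and 11.4, 3.27-fold lower. Among granule cell genes on a list made for this work, the nearest below that fold threshold were Maml2 and Glis3, each with a log2 fold change of -1.28. Within replicate number 1, which compared libraries with high Ddx3y, the log2 fold change was -2.73 for Plk5 and -1.57 for Pdzd2, and within number 2 it was -2.54 and -1.60, on a log2(CPM + 0.5) scale. All 9 genes had values below 0 within both numbers.

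By edgeR with a false discovery rate (FDR) under 0.05 and a fold above 3, all 9 genes were called lower, where 0.198% of 20687 tested genes were called. This contrast chose the genes, so the count is not support for the fall. With the replicate number as a block, which also carries the split in Xist and Ddx3y, 7 of the 9 were called, as were 24 of all 20687 genes, and Htra4 (FDR = 0.0611) and Ipcef1 (FDR = 0.0547) were not. Leaving out control 1 or control 2 left 0 of the 9 called, and 0 of all 21842 and 21292 genes tested, with no change of direction. In bulk tissue, fewer granule cells and less RNA per granule cell cannot be told apart. Choroid plexus markers moved in the opposite direction in the same libraries, and all 5 were higher in both mutants. Their summed level was 121 and 64.0 CPM in controls and 713 and 5455 in mutants. Ttr, the transthyretin gene, was the most abundant of these markers. None was at 0 in a library, and their part in the bulk values of the 9 genes was not tested.

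**Figure D1:**
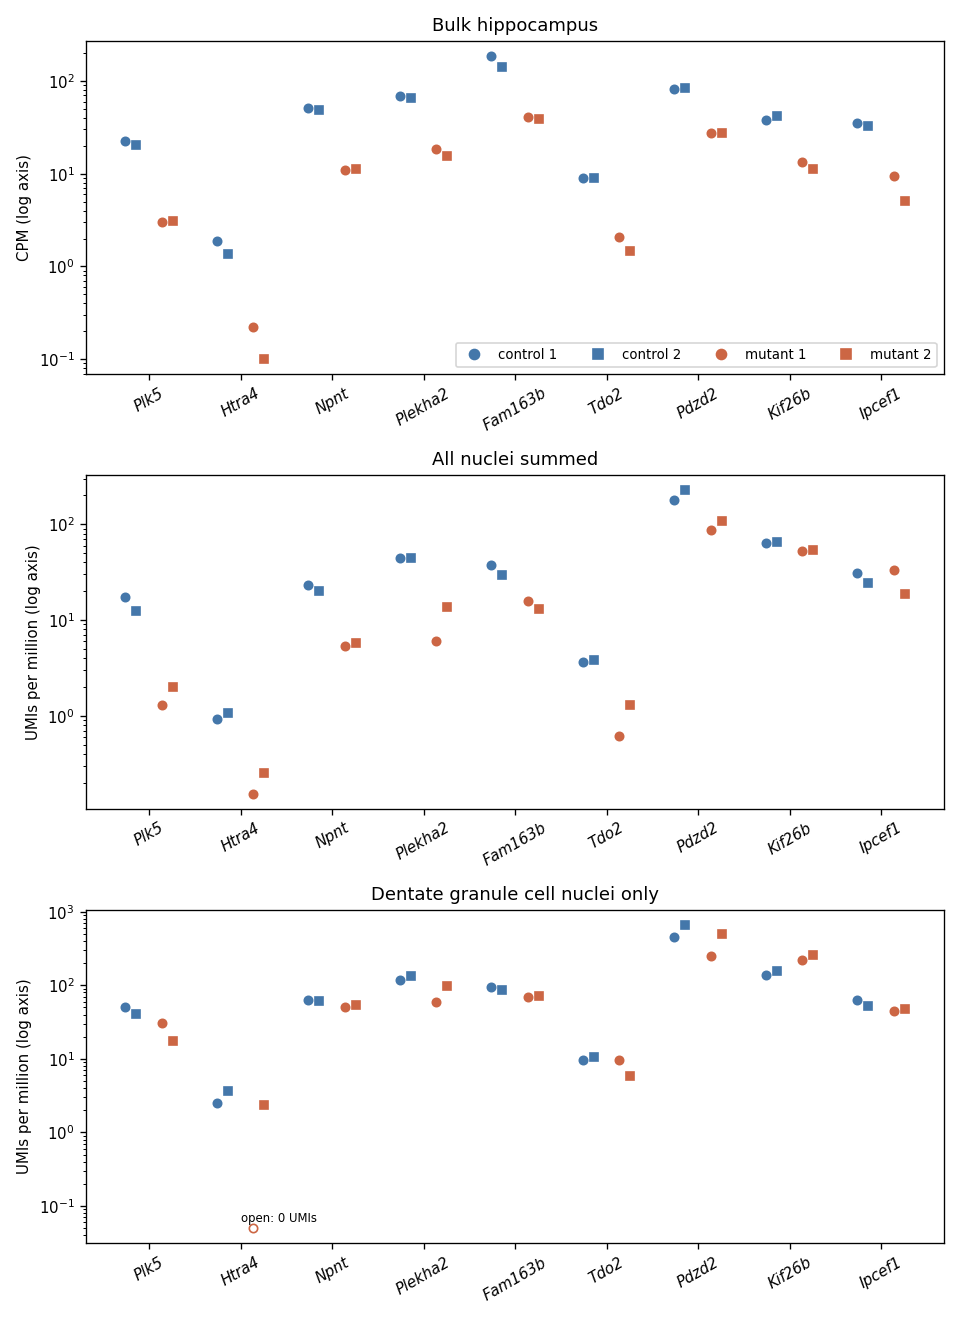
Level of each gene in every library (log axes), in CPM for bulk hippocampus (top) and UPM for all nuclei summed (middle) and for DGC nuclei (bottom), with circles for replicate 1 and squares for replicate 2. All 9 genes sit lower in mutants in bulk, Ipcef1 overlaps between groups in all nuclei, and Kif26b sits higher in mutants in DGC nuclei (the open circle is 0 UMIs of Htra4 in mutant 1).

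Relatives of the 9 genes passed no call in bulk. Of the other Polo-like kinases, 0 of 4 were called in bulk, and Plk2, the most abundant, had a log2 fold change of 0.43. Of the other HtrA proteases, 0 of 3 were called, and Htra1, also the most abundant, stood at 0.18. Npnt fell, whereas its receptor subunits Itga8 and Itgb1 had log2 fold changes of -0.54 and 0.22 with no call. Of the other Plekha adaptors, 0 of 7 were called, with a median of -0.07 against 0.01 over all genes. Fam163a (-0.47), Kif26a (0.15) and Il16, a PDZ relative of Pdzd2 (-0.30), were not called either. In bulk, 5 of the 11 other genes of the tryptophan to kynurenine pathway passed the filter on low counts, and 0 were called. Among them Ido2, a second tryptophan-opening enzyme, had a mean of 1.52 TPM in controls against 12.1 for Tdo2, and Kmo, the next oxygenase, had 0.290. Of 6 cytohesin pathway genes beside Ipcef1, 0 were called, and Cyth4, a cytohesin of blood cells, came nearest at -1.09 (FDR = 0.0505, edgeR).

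By contrast, of 15 further granule cell genes, 10 were called lower in bulk and 0 higher, with a median log2 fold change of -2.22 against 0.01 over all genes. This list also held genes known to fall in these samples, so it is not independent evidence. Prox1 stood at 164.5 and 174.3 CPM in controls and 32.4 and 18.8 in mutants, a fold change between those of Npnt and Plk5. Dsp, which anchors intermediate filaments at desmosomes, had a mean of 23.5 TPM in controls and 2.40 in mutants. Dgat2l6 and Il27ra, with log2 fold changes of -3.07 and -2.22, missed the FDR threshold at 0.063 and 0.057 (edgeR).

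The snRNAseq libraries measured the same genes in nuclei that had not been used in the bulk contrast. Summed over all nuclei, 8 of the 9 genes were lower in both mutants than in both controls, against 24.0% of 20575 tested genes. Plk5 stood at 17.3 and 12.4 UPM in controls and 1.31 and 1.98 in mutants, with a log2 fold change of -3.14 ± 0.31 (SE). Npnt stood at 23.3 and 20.1 against 5.31 and 5.81, and Plekha2 at 44.1 and 44.2 against 6.09 and 13.8. For these 3 genes the log2 fold changes in nuclei lay beside those in bulk, at -3.14, -1.96 and -2.13 in nuclei and -2.82, -2.16 and -1.98 in bulk. The Plekha2 value in nuclei was -2.86 without mutant 2 and -1.68 without mutant 1. Htra4 stood at 0.930 and 1.07 against 0.154 and 0.254, and Tdo2 at 3.61 and 3.80 against 0.616 and 1.31, both with non-overlapping groups. Fam163b stood at 37.2 and 29.5 against 15.7 and 13.0, and Pdzd2 at 180.8 and 226.1 against 86.5 and 108.4. Their log2 fold changes were -1.22 and -1.06 in nuclei against -2.04 and -1.60 in bulk.

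Kif26b and Ipcef1 behaved otherwise. Kif26b stood at 64.3 and 65.9 UPM in controls and 52.9 and 54.5 in mutants, a log2 fold change of -0.28 ± 0.12 (SE) against -1.71 in bulk. Ipcef1 stood at 30.8 and 24.5 in controls and 33.0 and 18.5 in mutants, a log2 fold change of -0.11 ± 0.29 against -2.23 in bulk, and its groups overlapped. The difference between assays was not tested, since the bulk values chose the genes and since the libraries count different RNA. Bulk RNAseq counted RNA of whole tissue against annotated transcripts, and the nuclei were counted against an index that includes introns.

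By edgeR, 0 of the 9 genes passed a fold above 2 with FDR under 0.05 in all nuclei summed, where 0% of 20575 genes were called, although 7 of the 9 were lower at an unadjusted p under 0.05, as were 1746 of all genes tested. The FDR was 0.161 for Plk5 and Npnt, 0.171 for Fam163b, 0.177 for Plekha2 and Pdzd2, 0.185 for Htra4, 0.196 for Tdo2, 0.373 for Kif26b and 0.889 for Ipcef1. DESeq2 called 6 of the 9 lower, where it called 1.07% of 16124 genes. With the replicate number as a block, edgeR called 7 of the 9 lower, beside 220 of all 20575 genes. Without mutant 2, edgeR called 2 of the 9, beside 16 of all 20598 genes. An exact permutation test over 2 against 2 mice cannot give a p below 0.33.

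**Figure D2:**
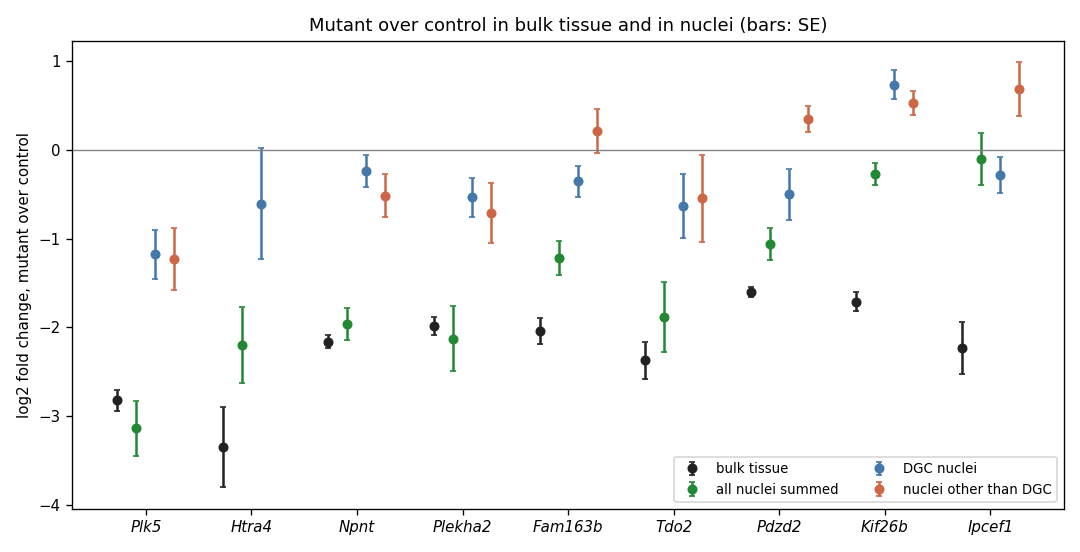
Log2 fold change of mutant over control for each gene, as fitted by edgeR with its SE as bar, in bulk tissue, in all nuclei summed, in DGC nuclei and in all other nuclei (2 mice per group each). Bulk and all-nuclei values lie close for Plk5, Npnt and Plekha2 and apart for Kif26b and Ipcef1. Within DGC nuclei, 8 of the 9 values lie between -1.18 and -0.24, and that of Kif26b is 0.73.

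Most of the RNA of these genes came from DGC nuclei in controls. DGC nuclei gave 89.1% and 85.3% of Plk5 UMIs in the 2 controls, while holding 29.2% and 26.4% of all UMIs. The share was 82.9% and 88.1% for Htra4, 82.1% and 78.1% for Npnt, 81.0% and 77.2% for Plekha2, and 80.1% and 72.7% for Tdo2. It was 76.5% and 76.0% for Fam163b and 74.9% and 75.7% for Pdzd2. The lowest shares were those of Kif26b, at 64.4% and 61.2%, and Ipcef1, at 62.7% and 55.1%. The genes with the lowest shares were thus the pair whose sum over nuclei differed least between genotypes. Counting error was largest for Htra4, whose 35 UMIs in control 1 gave a 95% Wilson interval of 67.3% to 91.9%.

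In mutants the same genes drew their UMIs mostly from other nuclei. DGC nuclei gave 38.2% and 37.8% of Plk5 UMIs, from 13 of 34 and 59 of 156 UMIs. For Ipcef1 the share was 2.22% and 11.1%, and excitatory neurons of cluster 8 became its largest source at 42.8% and 23.6%. For Kif26b it was 6.77% and 20.2%, and for Pdzd2 4.63% and 19.8%, with CA1 pyramidal cells as the largest other source of both.

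**Figure D3:**
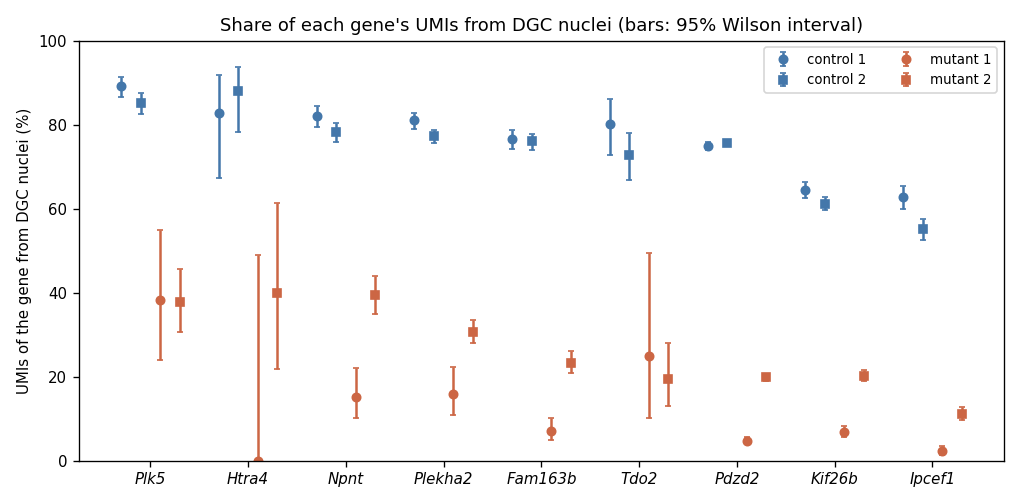
Percent of each gene's UMIs that came from DGC nuclei in each snRNAseq library, with 95% Wilson intervals for counting error only. Control shares lie between 55.1% and 89.1%, and mutant shares between 0% and 40.0%.

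The annotation lists 21 cell types, of which 18 had at least 10 nuclei in both controls. Plk5 stood at 45.8 UPM in DGC nuclei (40.5 to 51.1 over the 2 controls) against 9.32 in the next of the 18, excitatory neurons of cluster 10. Outside the 18, choroid plexus nuclei gave 50.3 UPM of Plk5 in control 1, from 3 UMIs in 9 nuclei, and 23.0 in mutant 2, from 22 UMIs in 184 nuclei, above the 17.2 of DGC nuclei in that library. Fam163b stood at 90.2 in DGC nuclei against 47.3 in excitatory neurons of cluster 8, and Pdzd2 at 553 against 315 in oligodendrocyte precursors (OPC). For these genes, and for Tdo2 (10.1 against 4.84 in microglia) and Kif26b (146 against 100.2 in excitatory neurons of cluster 13), DGC nuclei ranked first and the ranges over controls did not overlap. The Tdo2 value in microglia rested on 4 UMIs.

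For the other genes DGC nuclei did not rank first. Npnt was at 61.8 in DGC nuclei and 78.2 in microglia, and Plekha2 at 124.7 and 130.0, but in both cases the ranges over the 2 controls overlapped, so the order was not resolved. Npnt was also detected in the few nuclei labelled EC, a label whose markers were not checked. These gave 14 UMIs in 9 nuclei of control 2, held by 22.2% of those nuclei. Plekha2 reached 106.6 in the cluster labelled inhibitory neurons 14. The markers go against that label: among the 18 types this cluster was highest for the endothelial genes Flt1 (777 UPM) and Cldn5 (485) and the meningeal genes Slc6a13 (870) and Dcn (540), whereas Gad1, Gad2 and Slc32a1 of inhibitory neurons were highest in cluster 18. Htra4 ranked behind the cluster labelled excitatory neurons 19 only through 2 UMIs in one control. That cluster was also the highest for the fibroblast collagen gene Col1a2 (353 UPM), whereas Slc17a7 and Slc17a6 of excitatory neurons were highest in clusters 8 and 7. Ipcef1 ranked behind a pair of other types, at 57.9 in DGC nuclei (51.8 to 63.9), below 221.8 in microglia (190.1 to 253.4) and 144.6 in excitatory neurons of cluster 8. By level per cell type in these nuclei, Ipcef1 was thus not highest in DGC nuclei, although the many DGC nuclei still gave most of its UMIs in controls. The DGC level of Ipcef1 was also 5.08 times the median of the other types. These counts include introns, and Ipcef1 overlaps Oprm1 on the opposite strand. Whether that overlap affected the order of cell types was not tested.

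**Figure D4:**
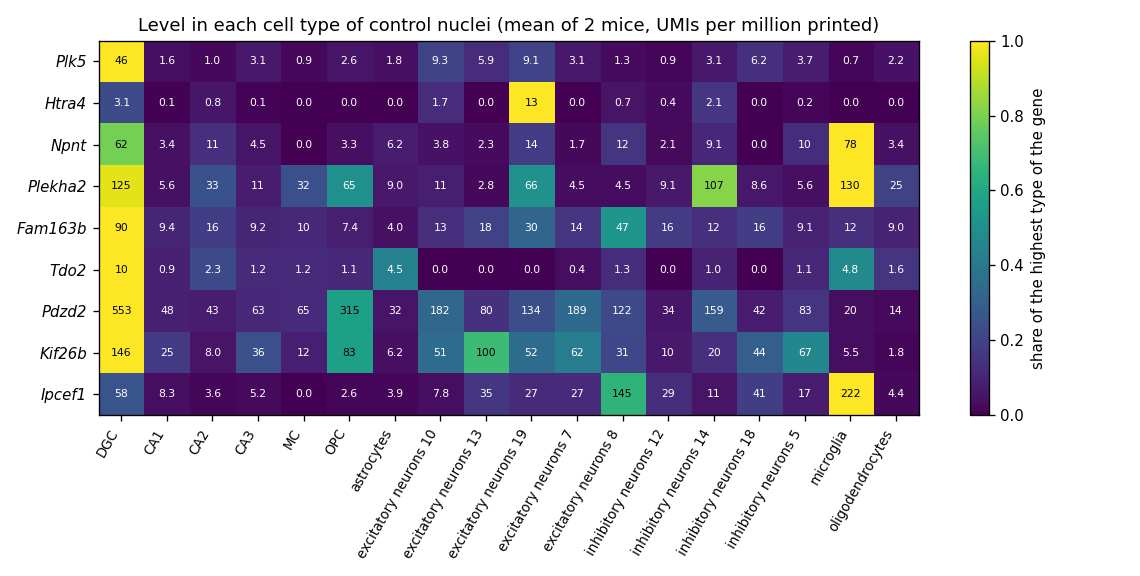
Mean level of each gene in 18 annotated cell types of the 2 control libraries, printed in UPM and coloured as a share of the gene's highest type. Plk5 peaks in DGC nuclei (46), whereas Ipcef1 peaks in microglia (222) and excitatory neurons of cluster 8 (145).

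Within DGC nuclei the median log2 fold change of the 9 genes was -0.50, against -0.01 over all genes. Prox1 stood at 282.2 and 284.4 UPM in controls and 296.5 and 338.4 in mutants. Npnt stood at 63.1 and 60.8 against 50.2 and 53.5, a log2 fold change of -0.24 ± 0.18 (SE). Fam163b stood at 93.9 and 86.8 against 69.3 and 71.0 (-0.36 ± 0.18), and Ipcef1 at 63.8 and 52.1 against 45.4 and 48.1 (-0.29 ± 0.20). In 6 of the 9 genes both mutants lay below both controls, against 26.1% of 15003 tested genes, and 5 without Htra4, which had too few UMIs to compare. Plekha2 stood at 117.9 and 132.1 against 59.8 and 98.9 (-0.54 ± 0.22). Pdzd2 stood at 447 and 662 against 249 and 504 (-0.50 ± 0.29), with overlapping groups. The value of Pdzd2 ran from -1.19 without mutant 2 to -0.15 without mutant 1. Tdo2 stood at 9.56 and 10.7 against 9.57 and 5.94, from 4 and 20 UMIs in the mutants. Htra4 had 29 and 59 UMIs in controls and 0 and 8 in mutants, and 0 UMIs in 90 nuclei allows a share of nuclei with a UMI of up to 3.33%, so no difference in Htra4 was detectable at this depth.

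Plk5 and Kif26b were the furthest from 0 in DGC nuclei, in opposite directions. Plk5 stood at 51.0 and 40.8 UPM in controls and 31.1 and 17.5 in mutants, a log2 fold change of -1.18 ± 0.28 (SE, FDR = 0.0706, edgeR). After thinning every nucleus to 1500 UMIs, 7.06% and 6.38% of control DGC nuclei and 4.44% and 1.94% of mutant ones held a Plk5 UMI. Kif26b stood at 137 and 156 in controls and 222 and 258 in mutants, a log2 fold change of 0.73 ± 0.17 (FDR = 0.0663, edgeR). After thinning, 17.9% and 20.9% of control DGC nuclei and 28.9% and 28.5% of mutant ones held a Kif26b UMI. Neither gene passed the threshold in this fit, and the groups did not overlap for either. With the replicate number as a block, Plk5 passed it (-1.085, FDR = 0.000111, edgeR), beside 261 of all 15003 genes called lower. Without a filter on low counts it also passed (-1.205, FDR = 0.000473, edgeR), beside 261 of all 22999 genes. Kif26b passed in neither, since its fold stayed below 2.

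In DGC nuclei edgeR called 0 of the 9 lower, where 0.64% of 15003 genes were called lower and 0.827% higher, with 2 of the 9 lower (Plk5 and Plekha2) and 1 higher (Kif26b) at an unadjusted p under 0.05, beside 1264 of all genes lower. DESeq2 also called 0, where it called 0.63% of 10960 genes lower. Without control 2, edgeR called 1 of the 9 lower, Plk5, with a log2 fold change of -1.29 (FDR = 0.00552), beside 208 of all 13626 genes. Without mutant 2, the log2 fold change of Plk5 was -0.59 (FDR = 0.650). Of the 15 further granule cell genes, C1ql2 was called lower (41.1 and 39.0 UPM against 7.17 and 14.9, FDR = 0.0242, edgeR) and the median log2 fold change was -0.16 against -0.01 over all genes. Mutant 1 gave 90 DGC nuclei and 414115 UMIs, so its values carry the largest counting error.

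Summed over all nuclei other than DGC, 8 of the 9 genes had enough counts to test, 4 with a log2 fold change below 0 and 4 above. Plk5 stood at 2.67 and 2.45 UPM in controls and 0.819 and 1.303 in mutants (-1.23 ± 0.35, SE). Npnt stood at 5.91 and 5.90 against 4.56 and 3.74 (-0.52), and Plekha2 at 11.9 and 13.5 against 5.19 and 10.1 (-0.71). Both had non-overlapping groups, whereas Tdo2 (1.02 and 1.40 against 0.468 and 1.12) and Fam163b (12.4 and 9.53 against 14.8 and 10.55) overlapped. Of the 8 genes, 3 had both mutants below both controls, against 22.1% of 19896 tested genes. Another 3 had both mutants above both controls, against 22.2%. Ipcef1 stood at 16.3 and 14.8 in controls and 32.7 and 17.4 in mutants (0.68 ± 0.30), Kif26b at 32.5 and 34.4 against 49.9 and 46.1 (0.52 ± 0.13), and Pdzd2 at 64.2 and 73.9 against 83.6 and 92.1 (0.35 ± 0.15). By edgeR 0 of the 8 were called, where 0% of 19896 genes were called lower, with 1 of the 8 lower (Plk5) and 1 higher (Kif26b) at an unadjusted p under 0.05, beside 1173 of all genes lower, and DESeq2 also called 0, where it called 0.307% of 15658 genes lower.

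The granule cell marker Prox1 was also lower in mutants in nuclei labelled as pyramidal cells. Prox1 in CA1 nuclei stood at 11.6 and 12.3 UPM in controls and 1.42 and 6.02 in mutants, and in CA3 nuclei at 13.8 and 12.2 against 1.02 and 4.31. In CA1 nuclei Plk5 stood at 2.01 and 1.22 against 0.438 and 0.606, and Npnt at 3.93 and 2.84 against 1.10 and 2.16. In CA3 nuclei Npnt stood at 4.52 and 4.44 against 1.02 and 1.75, and Plk5 had 17 and 27 UMIs in controls and 0 and 9 in mutants. In inhibitory neurons of cluster 5, Prox1 stood at 45.1 and 42.3 against 35.1 and 43.4, with overlapping groups. Of the 15 further granule cell genes, 13 had a log2 fold change below 0 over all nuclei other than DGC, and Grm2 (0.88) and Trpc6 (0.17) were above 0, with none called. The part of free RNA from granule cells in the values of the 9 genes outside DGC nuclei was not tested.

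In the 17 other cell types tested one by one, 1 call was made among the 9 genes, where 0.0754% of 167210 gene-by-type tests were called in either direction. Kif26b was higher in mossy cell nuclei, hilar excitatory neurons that granule cells contact, at 12.2 and 12.7 UPM in controls and 64.3 and 61.1 in mutants. Its log2 fold change was 2.32 ± 0.43 (SE, FDR = 0.0271, edgeR), but the control values rested on 5 and 7 UMIs in 38 and 32 nuclei and the mutant values on 12 and 57 UMIs in 27 and 89 nuclei. DESeq2 did not call it (log2 fold change 2.33, adjusted p = 0.618), and the call was lost without mutant 1 (FDR = 0.0564) and without mutant 2 (FDR = 0.520). In mossy cell nuclei 0.439% of 7289 genes were called higher. Kif26b was also higher in CA1 nuclei (24.6 and 25.3 against 33.6 and 35.1) and in excitatory neurons of cluster 8 (34.3 and 27.8 against 49.6 and 51.6), without passing the threshold (log2 fold changes of 0.45 and 0.74). Among microglia, where Ipcef1 is highest, it stood at 253.4 and 190.1 in controls and 185.8 and 205.6 in mutants, with overlapping groups.

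A reweighted value was made for each gene from the shares of the cell types alone. For it, the control level in each cell type was weighted by each mutant library's share of UMIs per type. This gave the percent of the control mean that a mutant library would hold if every cell type kept its control level. For Fam163b it gave 45.7% and 44.8% in the 2 mutants, beside measured values of 47.1% and 40.6%, and for Pdzd2 47.0% and 50.8% beside 42.2% and 55.3%. For Npnt it gave 27.9% and 40.1% beside 24.5% and 27.9%, and for Plekha2 23.5% and 39.8% beside 13.7% and 32.5%. It gave 32.8% and 39.2% beside 15.3% and 26.3% for Htra4, and 28.8% and 42.4% beside 16.5% and 36.6% for Tdo2. For Plk5 it gave 25.0% and 35.9% beside 8.83% and 13.9%. The reweighted value was above the measured one in both mutants for these 5 genes, and below it in both for Kif26b, at 66.8% and 61.7% beside 80.9% and 87.0%. Ipcef1 was also below in both, and, at 88.5% and 66.2% beside 119.3% and 69.9%, was the gene with the smallest reweighted fall. A gap between reweighted and measured values can lie in any cell type, so it does not isolate the level in DGC nuclei. For Prox1 the reweighted values were 22.5% and 37.6% beside measured ones of 13.9% and 34.0%, although Prox1 was not lower in mutant DGC nuclei. These values have no test, since each mutant library gives one.

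**Figure D5:**
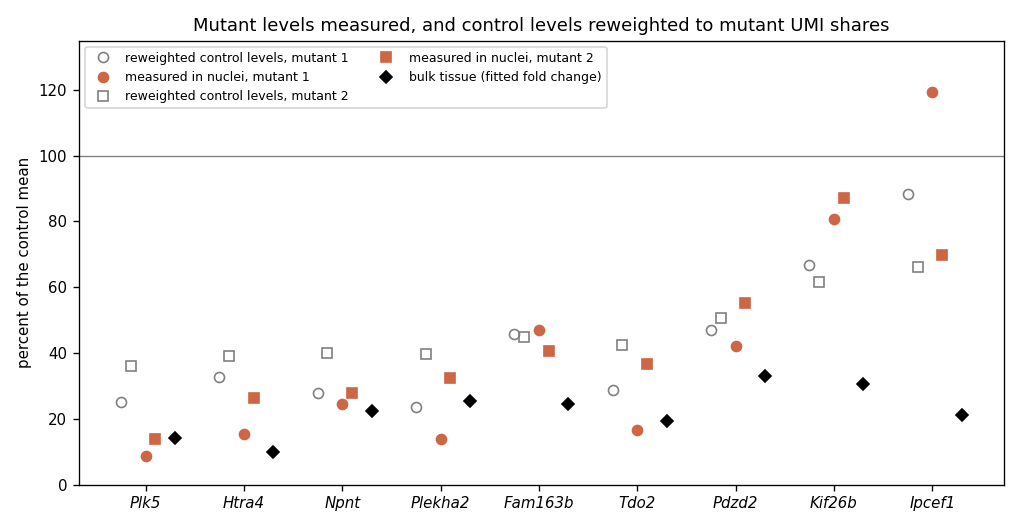
Percent of the control mean for each gene, from control levels reweighted to each mutant's UMI shares (open grey), as measured in each mutant's nuclei (filled orange), and in bulk tissue as the fitted fold change (black). Plk5, Htra4, Npnt, Plekha2 and Tdo2 were measured below their reweighted values in both mutants, and Kif26b and Ipcef1 above them. Bulk lies below the reweighted and measured values for Kif26b (30.6%), Ipcef1 (21.3%), Fam163b (24.4%), Pdzd2 (32.9%), Npnt (22.4%) and Htra4 (9.83%).

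The Ipcef1 locus differed between assays in another respect. The gene whose level over 18 cell types was most like that of Ipcef1, among 14676 genes, was Oprm1, its overlapping neighbour on the opposite strand, with a Pearson r of 0.83 over cell types that share libraries and depth. In bulk Oprm1 stood at 0.266 and 0.611 CPM in controls and 0.340 and 0.163 in mutants, far under Ipcef1 at 35.0 and 32.6. In all nuclei it stood at 52.0 and 49.0 UPM in controls and 67.1 and 48.5 in mutants, above Ipcef1. Outside DGC nuclei both genes were higher in mutants, Oprm1 at 32.5 and 29.9 against 65.9 and 46.3. How reads in the shared stretch were divided between the 2 genes in nuclei was not tested. Among the other genes, those most alike over cell types were Pdzd2 and Kif26b (r = 0.83), and Fst, a granule cell gene that encodes an activin inhibitor, was the second most like Plk5 (r = 0.82). These correlations carry no test.

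How often the genes were found in the same DGC nuclei was described in the controls. Of 36 pairs, 27 had at least 20 nuclei holding both genes in each control. Within 5 strata of UMIs per nucleus, the odds ratio for holding both was above 1 in both controls in 10 pairs and below 1 in both in 10. It was highest for Npnt with Tdo2, at 1.303 and 2.02, and lowest for Plk5 with Npnt, at 0.672 and 0.615. After thinning these became 1.09 and 1.25 for Npnt with Tdo2, and 0.972 and 0.555 for Plk5 with Npnt, from 3 and 3 and from 14 and 6 nuclei that held both. The values are a description of sparse counts in nuclei of 2 mice, and no shared or separate use of the genes is read from them.

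Position along the dentate gyrus was read from 3 genes enriched in the ventral part (Trhr, Nr2f2 and Grp) and 3 enriched in the dorsal part (Lct, Spata13 and Gsg1l). After thinning, 78 and 93 control DGC nuclei held only ventral markers and 383 and 404 only dorsal ones, against 13 and 67 ventral and 8 and 38 dorsal nuclei in the mutants. The ventral gene Trhr, a receptor for thyrotropin-releasing hormone, stood at 6.68 and 7.44 UPM in control DGC nuclei and 60.4 and 56.9 in mutant ones. Nr2f2 was higher too, at 10.2 and 10.5 against 31.4 and 47.0, whereas Grp was lower, at 17.9 and 21.2 against 14.5 and 12.8. The dorsal genes were lower in both mutants, Lct at 25.1 and 28.1 against 12.1 and 9.34, Spata13 at 26.6 and 29.6 against 7.24 and 9.34, and Gsg1l at 88.2 and 113.7 against 45.9 and 54.3. The part of these differences in the values of the 9 genes was not tested. In controls Plk5 was held by 8.97% and 7.53% of ventral and 11.7% and 10.4% of dorsal nuclei, and Npnt by 10.3% and 11.8% of ventral and 6.53% and 6.44% of dorsal ones. With Trhr against Lct alone, Npnt was held by 12.5% and 9.09% of ventral and 4.71% and 11.4% of dorsal nuclei, so its order turned in control 2. Kif26b showed no constant order, at 16.7% and 25.8% in ventral and 17.0% and 21.5% in dorsal nuclei. In mutant 2, 1 of 67 ventral and 1 of 38 dorsal nuclei held Plk5, and in mutant 1 none of 13 and 8. Few nuclei carried any of the 6 markers, so the mutant shares by position rest on 21 and 105 nuclei.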

How the data were processed

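Bulk RNAseq and snRNAseq were each analysed in 2 mutant and 2 control mice, grouped by the labelled genotype. The authors made the deposited expected counts and TPM per gene with RSEM 1.3.0 and Bowtie2 2.2.9 (mm10). The deposited matrix of the authors holds a normalised signal, the expected count divided by a library factor. The deposited UMI counts per nucleus came from Cell Ranger 3.1.0 with a pre-mRNA index, and the cell types from the authors' annotation of clusters. Per the file headers a further column gives the number of genes per nucleus, which was read for a summary of depth that is not given here.

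Expected counts were rounded, and UMIs were summed per library and cell type. Both were tested with edgeR 4.0.16 (R 4.3.3, quasi-likelihood, TMM, filterByExpr) and Benjamini-Hochberg adjustment over all genes. Calls needed an FDR under 0.05 and a fold above 3 in bulk or above 2 in nuclei. Values per library in fitted comparisons are scaled by TMM, and values per cell type (UPM) are relative to the total UMIs of that type, so the same nuclei can differ slightly between them. Alternatives were DESeq2 1.42.0, limma 3.58.1 on log2(signal + 1) for genes with a mean of at least 10, log2(TPM + 0.1), RLE factors, no filter, a replicate block, leaving out each library, and thinning to 1500 UMIs. Intervals are 95% Wilson intervals, and they and the limit that 0 counts allow (3 counts) cover counting error only. The tests were tried on simulated data. The labels do not say whether mice shared litters, so p-values measure the spread between these mice. Doublets were not called again. The genes and lists were chosen with earlier results of these data known. The named genes were the 9 members, Wls, Xist and Ddx3y, the 3 genes most like each member, and from each list the called, the most abundant and up to 4 other genes.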

Additional observations from a re-analysis of the deposited data

Results flagged for a closer look

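Pdzd2, Kif26b and Ipcef1 had fold changes of opposite sign in different sets of libraries, and none of these differences was tested. Pdzd2 had a log2 fold change of -1.60 in bulk tissue and 0.35 in nuclei other than DGC. Kif26b had -1.71 in bulk tissue, 0.73 in DGC nuclei and 0.52 in nuclei other than DGC. Ipcef1 had -2.23 in bulk tissue, -0.29 in DGC nuclei and 0.68 in nuclei other than DGC. In each case every mutant library lay on one side of both controls in one set and on the other side in the other.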

How the results depend on the processing

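Of the 9 genes called lower in bulk, 0 to 9 were called when one library was left out, with 0 without either control, and 7 with the replicate block (24 of 20687 genes, beside 41 without it), where Htra4 and Ipcef1 lost the call. In all nuclei summed, where edgeR called 0, DESeq2 called 6 (172 of 16124 genes), the fit with a replicate block called 7 (220 of 20575 genes), and leaving out one library gave 0 to 2. In DGC nuclei, where 0 were called lower, testing without a filter on low counts called 1 (261 of 22999 genes), the replicate block called 1 (261 of 15003 genes, beside 96 without the block), and leaving out one library gave 0 to 1. Among single other cell types, with 1 call (0.0754% of all tests), DESeq2 gave 0 (0.078%), no filter 4 (0.358%), the replicate block 4 (0.792%), and leaving out one library 0 to 2 (from 266 of 159744 to 2054 of 166208 tests). The genes held more often by dorsal nuclei in both controls numbered 5, among them Htra4 and Tdo2. Each of these was in 0 ventral nuclei and in 4 and 3 dorsal ones of the controls, too few to compare. With Trhr against Lct alone the number was 2. The cause of these changes was not tested. Samples with the same replicate number share only a number: the correlation of their deviations was 0.06 in bulk, 0.52 in all nuclei and 0.19 in DGC nuclei, over 2 pairs. The sign of Ipcef1 in all nuclei turned when one library was left out, over a range of log2 fold changes from -0.58 to 0.25 (0.25 without mutant 2 and 0.05 without control 1). The sign of Fam163b in other nuclei turned without mutant 1 (-0.056, range -0.056 to 0.45). Without mutant 1 and without mutant 2, the log2 fold change of Tdo2 was -1.51 and -2.59 in all nuclei and -0.13 and -1.35 in other nuclei, and that of Htra4 in bulk was -3.97 and -2.86. For single genes, 277 alternatives kept direction and side of the threshold, 23 lost the call, 18 gained it and 3 changed sign. With 90 DGC nuclei in mutant 1, depth limits Htra4 and Tdo2 most.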
